A study of Mus musculus with 4 samples.

Results

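Metalloproteinases are enzymes that cut the proteins of the extracellular matrix, and 6 genes that set how 2 of them work were described here: the inhibitors Timp1, Timp2, Timp3 and Reck, the gelatinase gene Mmp2, and Mmp14, whose product activates the Mmp2 product at the cell surface. The 6 genes were chosen by name out of 22180 genes measured on the arrays, and each had exactly 1 probe set with its symbol. Expression was measured in CT26, a mouse colon carcinoma line, on 4 Affymetrix Mouse Gene 2.0 ST arrays with 1 array per group. The DMSO group was CT26 given the solvent DMSO for 24 h, and the Senexin B group was CT26 given 5 µM Senexin B, an inhibitor of the Mediator kinases CDK8 and CDK19, for 24 h. The pLKO.1 group was CT26 carrying that lentiviral vector, and the shCDK8 group was the CT26 line named for a hairpin against Cdk8. The 4 groups share the CT26 background and a serum-containing medium. The labels do not say whether the vector and hairpin lines were pools or clones. They give no replicates, so no difference was tested and each value below is a difference between 2 arrays.

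The TIMP proteins are small secreted inhibitors that fit into the zinc-containing active site of a metalloproteinase and block it. They differ in their targets. TIMP1 is a poor inhibitor of membrane-bound metalloproteinases. TIMP3 stays bound to the matrix and also blocks several ADAM and ADAMTS proteases, and TIMP2 has a further role as an adaptor. On the cell surface, the membrane-anchored MMP14 holds TIMP2, TIMP2 holds the inactive form of MMP2, and a free neighbouring MMP14 molecule cuts that form to start its activation. RECK is a membrane-anchored inhibitor of several metalloproteinases, including MMP2 and MMP14, and is also a co-receptor for WNT7 signals. The study's title places the metalloproteinase network downstream of CDK8 in liver metastasis of colon cancer, and the question here was how the inhibitors and the Mmp2 activation genes stood on each array.

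Timp1 and Timp3 were the inhibitor genes that lay farthest from both controls on both perturbed arrays, in opposite directions, and their upstream sequences are therefore shown. Each is the 250 bases before the annotated start in RefSeq, build GRCm38.p6, 5′ to 3′ on the strand of the gene. Timp1 is at chrX:20869916-20870165 on the plus strand and Timp3 at chr10:86300162-86300411 on the plus strand. Capitals mark matches on either strand to the ETS-type motif CAGGAAG or to the Sp1 GC box GGGCGG.
Timp1: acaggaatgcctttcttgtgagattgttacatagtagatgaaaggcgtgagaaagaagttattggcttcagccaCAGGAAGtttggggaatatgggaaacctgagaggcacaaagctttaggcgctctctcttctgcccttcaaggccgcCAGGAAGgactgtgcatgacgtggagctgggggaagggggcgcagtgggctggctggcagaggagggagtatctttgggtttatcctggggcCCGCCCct
Timp3: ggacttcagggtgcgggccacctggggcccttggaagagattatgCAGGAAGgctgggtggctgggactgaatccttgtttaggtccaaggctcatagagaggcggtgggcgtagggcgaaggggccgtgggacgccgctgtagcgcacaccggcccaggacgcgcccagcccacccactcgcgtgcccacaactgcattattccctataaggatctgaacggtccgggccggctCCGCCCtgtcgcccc
In the Timp1 window the ETS-type letters begin at positions -176 and -100 and the GC box at -8, counted from the start site. In the Timp3 window the ETS-type letters begin at -205 and the GC box at -15. Of all 32851 windows of this length, 10.8% hold the ETS-type letters and 32.7% the GC box. Searches for the AP-1 letters TGANTCA, the STAT letters TTCNNNGAA and the TATA box letters TATAAA, which 6.75%, 7.02% and 12.4% of all windows hold, found no match in either window. A match is a description of the letters and not a binding site. Windows were found for 5 of the 6 genes. Timp2 holds 1 GC box, Reck 2 and Mmp14 2.

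As a check of the labels, Cdk8 itself was 1.72 lower on the log2 scale in shCDK8 than in pLKO.1 (9.07 against 10.79) and differed by -0.11 between Senexin B and DMSO. The array medians over all probe sets lay between 5.99 and 6.04. The expression limit was set at 5.98, which is the 40th percentile over genes and arrays, and 14272 genes whose highest value reached it were called expressed, including all 6 described here. The SD over expressed genes of the difference between the controls, pLKO.1 minus DMSO, was 0.194. Of 8 epithelial markers, 5 were expressed (Cdh1, Krt8, Krt18, Krt20 and Cdx2), while Epcam, Krt19 and Vil1 were under the limit on all 4 arrays. Krt20, an intestinal keratin gene, stood at 8.72 in DMSO, 8.62 in Senexin B, 8.03 in pLKO.1 and 6.59 in shCDK8, a difference of -1.44 between the hairpin and vector lines that was larger than that of any of the 6 genes, beside -0.69 between the controls. The other 4 expressed epithelial markers were not lower in shCDK8 than in pLKO.1. Cdx2 was at 0.41, Cdh1 at 0.24, Krt18 at 0.04 and Krt8 at 0.004. The part of Krt20 in the shCDK8 values below was not tested. None of the 3 measured immune cell markers Ptprc, Cd3e and Adgre1 was expressed. All 4 endothelial markers, Pecam1, Cdh5, Kdr and Tie1, reached the limit on at least 1 array, but none passed 6.51. Cdh1, Krt18 and Cdx2 lay in or little above that range, at no more than 6.82. Reaching the limit thus does not show that a cell type was present. In such bulk samples, fewer cells of a type and less RNA per cell cannot be told apart.

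Timp1, the inhibitor that is also induced by growth factors and cytokines, was lower on both perturbed arrays. Its log2 level was 10.53 in DMSO, 9.70 in Senexin B, 10.43 in pLKO.1 and 9.64 in shCDK8. The controls lay close together at the top and both perturbed arrays close together at the bottom, with no overlap. Senexin B minus DMSO was -0.83, a 1.77-fold lower level, at rank 66 from the bottom of the expressed genes. The shCDK8 line minus pLKO.1 was -0.78, a 1.72-fold lower level. With the controls exchanged, the differences were -0.73 for Senexin B minus pLKO.1 and -0.88 for shCDK8 minus DMSO. The controls themselves differed by -0.10.

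Timp3, the matrix-bound inhibitor, was higher on both perturbed arrays and was the inhibitor with the largest differences. Its level was 9.09 in DMSO, 10.86 in Senexin B, 8.91 in pLKO.1 and 9.90 in shCDK8. The Senexin B array stood highest, the shCDK8 array next, and the controls lowest. Senexin B minus DMSO was 1.77, a 3.41-fold higher level, which ranked 21 from the top of the expressed genes. In shCDK8 minus pLKO.1 the difference was 0.99, a 1.99-fold higher level at rank 30, just short of 2-fold. It was 1.95 for Senexin B minus pLKO.1 and 0.81 for shCDK8 minus DMSO, beside -0.18 between the controls.

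Timp2, the adaptor of MMP14, was nearly level. It stood at 12.01 in DMSO, 12.17 in Senexin B, 12.06 in pLKO.1 and 12.00 in shCDK8, so the 4 arrays spanned 0.18. It lay above at least 98.9% of all genes on each array. Its differences were 0.16 for Senexin B and -0.07 for shCDK8, each inside the SD of 0.194 that expressed genes showed between the controls. Timp4, the remaining family member, was under the limit on all 4 arrays, at 5.18 to 5.32.

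Reck, the membrane-anchored inhibitor, was slightly higher on both perturbed arrays. Its level was 7.02 in DMSO, 7.27 in Senexin B, 6.99 in pLKO.1 and 7.42 in shCDK8. The controls differed by 0.03 and both perturbed arrays lay above them. The difference was 0.25 for Senexin B minus DMSO, which 14.01% of expressed genes reached or passed, and 0.43 for shCDK8 minus pLKO.1, which 4.60% reached or passed. Neither was 1.5-fold.

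**Figure D1:**
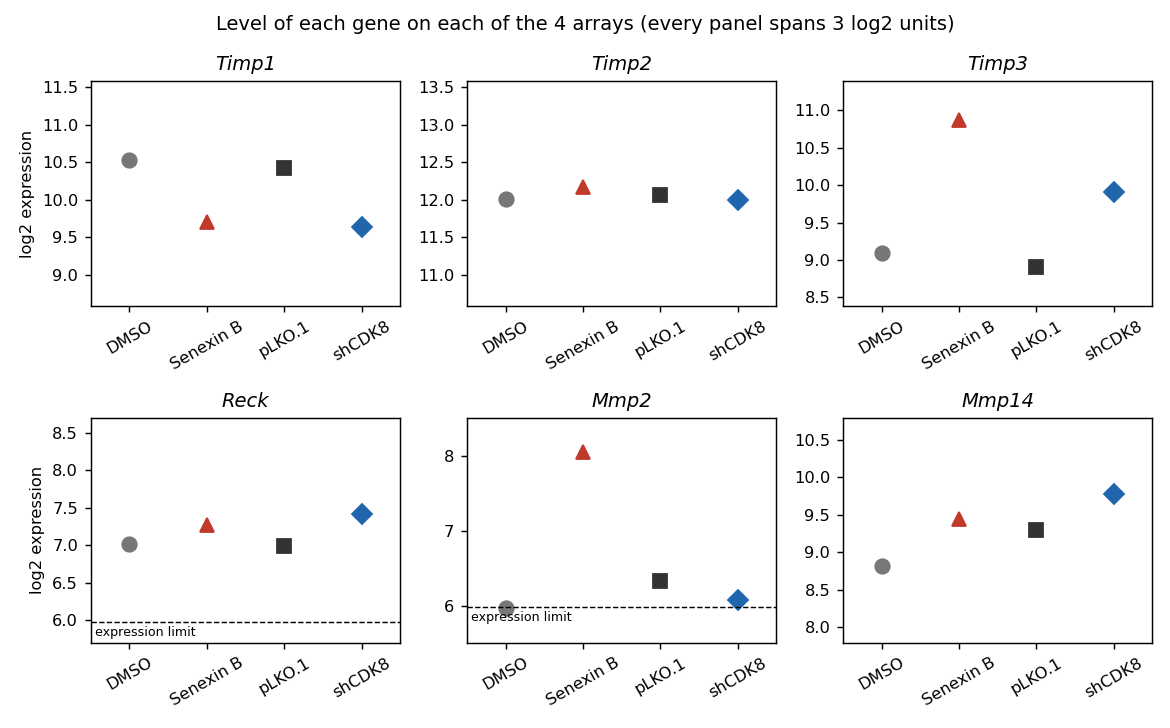
Log2 expression (vertical axis) of the 6 genes on the 4 arrays (horizontal axis), 1 point per array with no error bars because each group had 1 array; the dashed line is the expression limit of 5.98. Timp1 is low and Timp3 high on both the Senexin B and shCDK8 arrays, Timp2 spans 0.18, and Mmp2 stands apart on the Senexin B array, at 8.05.

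Mmp2, which encodes gelatinase A, an enzyme that degrades denatured collagen and basement membrane collagen, was high on the Senexin B array and on no other. Its level was 5.97 in DMSO, 8.05 in Senexin B, 6.33 in pLKO.1 and 6.08 in shCDK8. The DMSO value lay just under the expression limit and the pLKO.1 and shCDK8 values less than 0.4 above it, so the gene was near the limit on 3 arrays. Senexin B minus DMSO was 2.08, a 4.22-fold higher level and rank 11 from the top, and it was 2.07 with the DMSO value raised to the limit. Against pLKO.1 it was 1.71, or 3.28-fold. The shCDK8 line differed by -0.26 from pLKO.1 and by 0.11 from DMSO, so the sign depended on the control, and the controls differed by 0.37.

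Mmp14, which encodes the membrane-type enzyme that activates MMP2, was lowest in DMSO and highest in shCDK8. Its level was 8.81 in DMSO, 9.45 in Senexin B, 9.30 in pLKO.1 and 9.78 in shCDK8. The pLKO.1 array lay much closer to Senexin B than to DMSO. Senexin B minus DMSO was 0.64, a 1.56-fold higher level, but Senexin B minus pLKO.1 was 0.15. The shCDK8 line was 0.48 above pLKO.1, a 1.40-fold higher level, and 0.97 above DMSO. The controls differed by 0.49, a positive difference that 1.23% of expressed genes reached or passed, so the array gap between the controls was as large as the gap between the vector and hairpin lines.

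**Figure D2:**
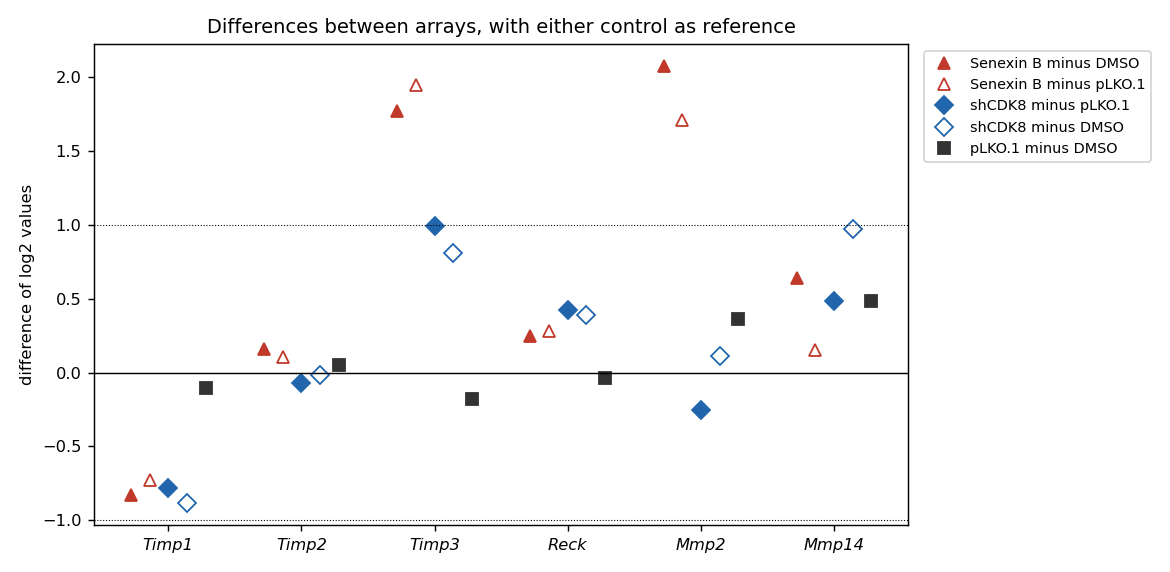
Differences of log2 values (vertical axis) for the 6 genes (horizontal axis); filled triangles and diamonds use the control of the design, open ones the other control, black squares are pLKO.1 minus DMSO, and dotted lines mark 2-fold. For Timp1 and Timp3 all 4 differences against a control lie on the same side of 0 and beyond the gap between the controls, while for Mmp14 the value for Senexin B moves from 0.64 to 0.15 with the control.

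Counted together, 2 of the 6 genes were at least 2-fold higher in Senexin B than in DMSO, Timp3 and Mmp2, against 0.687% of expressed genes, and 0 were at least 2-fold lower, against 0.252%. At 1.5-fold, 3 were higher (Timp3, Mmp2 and Mmp14), against 2.35% of expressed genes, and Timp1 was lower, against 1.65%. In shCDK8 minus pLKO.1, 0 of the 6 were 2-fold apart in either direction, against 0.518% of expressed genes. Timp3 was at least 1.5-fold higher, against 1.67%, and Timp1 at least 1.5-fold lower, against 1.85%. Between the controls 0 of the 6 were 1.5-fold apart, against 1.04%. The median of the 6 differences was 0.45 for Senexin B, 0.18 for shCDK8 and 0.0095 between the controls, beside medians over expressed genes of -0.028, 0.0038 and -0.023. Since the genes were chosen with earlier results of these arrays known, these shares describe them and support nothing further.

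Senexin B minus DMSO and shCDK8 minus pLKO.1 have no array in common, and so their values can be set side by side. Timp3 was positive in both (1.77 and 0.99), as were Mmp14 (0.64 and 0.48) and Reck (0.25 and 0.43). Timp1 was negative in both (-0.83 and -0.78). Mmp2 and Timp2 differed in sign between them (2.08 and -0.26 for Mmp2, 0.16 and -0.07 for Timp2), and whether these effects differ was not tested.

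A stricter reading asked whether both perturbed arrays lay on the same side of both controls, measured by the gap between the nearest perturbed and control arrays. For Timp3 this gap was 0.81, the second highest of the 14272 expressed genes, after Aqp1, a water channel gene, at 0.82. For Timp1 the gap on the lower side was 0.73, at rank 9. Of the 6 genes, 3 lay above both controls on both perturbed arrays (Timp3, Reck and Mmp14), against 16.3% of expressed genes, and Timp1 lay below both, against 18.9%. Timp3 was the 1 gene of the 6 with a gap of at least 1.5-fold on the higher side, against 0.0771% of expressed genes, and Timp1 on the lower side, against 0.105%. Reck had a gap of 0.25 at rank 187 on the higher side, and Mmp14 of 0.15 at rank 566, smaller than its gap of 0.49 between the controls. Timp2 and Mmp2 had no such gap. This measure was chosen after the data were seen.

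**Figure D3:**
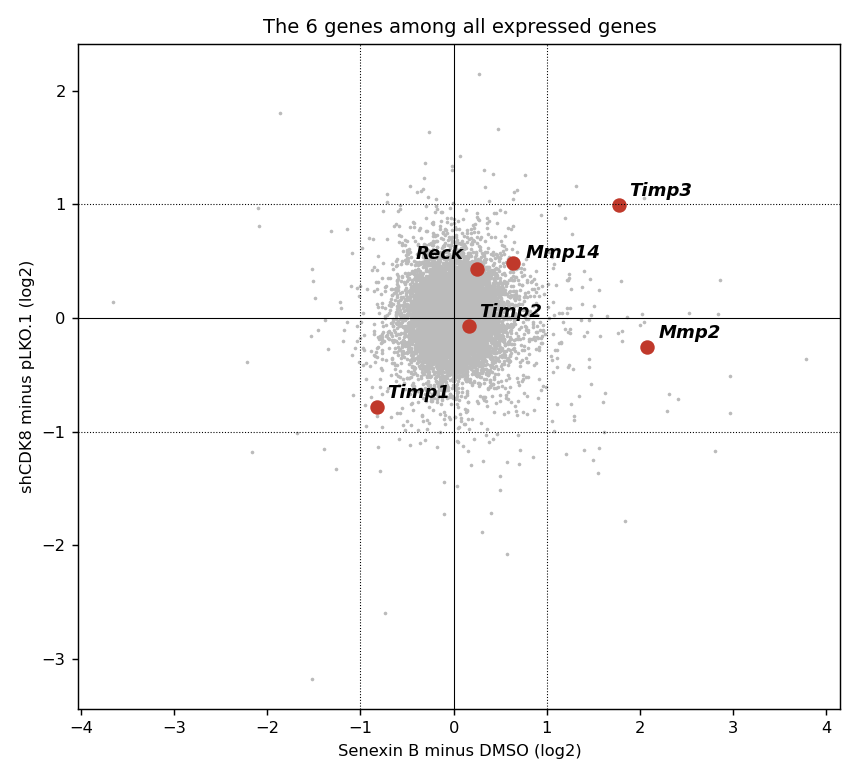
Each grey point is 1 of the 14272 expressed genes, with its difference for Senexin B minus DMSO on the horizontal and for shCDK8 minus pLKO.1 on the vertical axis, both in log2 units; red points are the 6 genes and dotted lines mark 2-fold. Timp3 lies at the upper right (1.77 and 0.99), Timp1 at the lower left (-0.83 and -0.78), and Mmp2 far to the right near the horizontal axis (2.08 and -0.26).

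Which genes followed Mmp2 and Timp3 over the 4 arrays was read from the distance between the 4 values, each gene centred on its own mean, among 12575 expressed protein-coding genes. The nearest to Mmp2 were Ccn3, a matricellular protein gene (distance 0.15), Col6a2, a chain of type VI collagen (0.17), and Pparg, a nuclear receptor of fat cell differentiation (0.22). Ccn3 was at 2.00 in Senexin B minus DMSO and at -0.06 in shCDK8 minus pLKO.1, and Col6a2 was at 2.04 and -0.04. Pparg reached the expression limit on the Senexin B array alone, so its place among the nearest genes rests on 3 values under the limit, and its difference was 0.90 with the DMSO value raised to the limit. The 3 genes were selected for this likeness, which is therefore no finding. The nearest to Timp3 were the annexin gene Anxa8 (0.35), the carbonyl reductase gene Cbr2 (0.51) and the serpin gene Serpinb9b (0.52). In shCDK8 minus pLKO.1, Timp3 was at 0.99 and Anxa8 at 1.16, but Cbr2 was at 0.35 and Serpinb9b at 0.32. Anxa8 was under the expression limit in pLKO.1, at 5.78. The other 4 of the 6 described genes spanned less than 1 on the log2 scale and were not matched.

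Mmp2 is typically made by fibroblasts in tissues, so the levels of fibroblast markers are given beside it. The summed linear signal of the 7 markers was 2889 in DMSO, 7199.5 in Senexin B, 3269 in pLKO.1 and 2119 in shCDK8. It was thus highest on the array where Mmp2 was highest. Of the 6 expressed markers, 5 had a positive difference for Senexin B minus DMSO, 3 of them at least 2-fold, against 0.687% of expressed genes: Dcn (decorin) at 2.29, Pdgfrb at 1.49 and Pdgfra at 1.24. Fap was at -0.46. Lum (lumican), a defining marker, was under the limit on all 4 arrays, at 5.62 in Senexin B and 4.55 to 4.60 on the others. In shCDK8 minus pLKO.1, 4 of the 6 expressed markers were at least 1.5-fold lower, against 1.85% of expressed genes, with Col3a1 at -1.27 and Pdgfrb at -1.25. In shCDK8 minus DMSO 2 were, beside 2.28% of expressed genes. Since the markers were chosen with earlier results of these arrays known, these shares describe them and support nothing further. On the control arrays 5 of the 7 markers reached the limit in DMSO and 6 in pLKO.1. The limit is the 40th percentile over genes and arrays, so most gene values reach it. The part of the fibroblast markers in the Mmp2 difference was not tested.

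**Figure D4:**
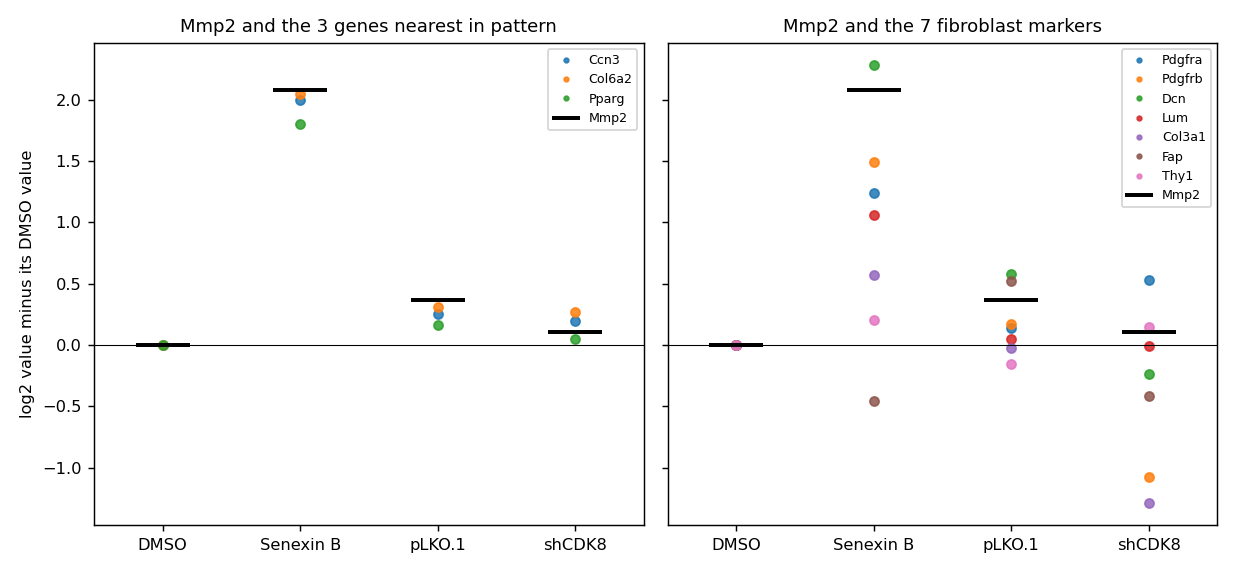
Log2 value minus the DMSO value of the same gene (vertical axis) on each array (horizontal axis) for Mmp2 (black bars), the 3 genes nearest to it in pattern (left) and the 7 fibroblast markers (right). The 3 genes on the left were chosen for their closeness to Mmp2 on these arrays; the fibroblast markers spread from -0.46 to 2.29 on the Senexin B array.

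The activation of the Mmp2 product depends on further proteins, which were read from lists of genes known to act with these 6. Of the membrane-type metalloproteinases related to Mmp14, Mmp17 and Mmp24 were expressed. They were at 0.05 and 0.03 for Senexin B and at -0.14 and -0.21 for shCDK8. Mmp16 and Mmp25 lay under the limit, and Mmp15 was not analysed here. None of the proprotein convertases, the enzymes that cut the inactive MMP14 precursor, was 1.5-fold apart in either comparison: of 4 expressed, Furin was at -0.24 for Senexin B and -0.12 for shCDK8, Pcsk7 at -0.26 and 0.12, and Pcsk5 at -0.11 and -0.42. Their medians were -0.18 and -0.07. Of all expressed genes, 4% were at least 1.5-fold apart in Senexin B minus DMSO and 3.52% in shCDK8 minus pLKO.1. A short list would thus often hold none.

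Of 14 surface partners and clearance receptors, all expressed, 2 were higher and 1 was lower by at least 1.5-fold in Senexin B minus DMSO. The shares of expressed genes were 2.35% and 1.65%. In shCDK8 minus pLKO.1, 0 of the 14 were 1.5-fold apart, against 3.52% of expressed genes. Thbs1 and Thbs2 encode thrombospondins, of which the second helps clear MMP2 from the cell surface through the receptor LRP1. Thbs2 was at 11.11 in DMSO, 11.85 in Senexin B, 10.82 in pLKO.1 and 10.90 in shCDK8, a difference of 0.75 with Senexin B and 0.07 with shCDK8. Thbs1 was at 0.74 and 0.29. Itgav, the integrin chain that pairs with beta 3 to bind MMP2, was at -0.59 and 0.13. The list medians were -0.04 and 0.05.

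The list of other extracellular protease inhibitors had 9 expressed genes, of which Pcolce and Pcolce2 encode enhancers of collagen processing and not inhibitors. Pcolce2, whose product has a TIMP-related domain, was at -0.61 with Senexin B. It was the only 1 of the 9 that was 1.5-fold apart in that comparison, against 4% of expressed genes. In shCDK8 minus pLKO.1, 0 were, against 3.52%. For Senexin B minus pLKO.1, Pcolce2 was at -0.45, no longer 1.5-fold. Spint2, an inhibitor of serine proteases, was at 0.43 and 0.48, and at 0.64 for Senexin B minus pLKO.1, and Spint1 at 0.02 and -0.40. The medians were 0.02 and -0.08. Of the listed ADAM and ADAMTS genes, whose products TIMP3 does not all block, 7 were expressed. Of these, 0 were 1.5-fold apart in either comparison, against 4% of expressed genes for Senexin B and 3.52% for shCDK8. The sheddase gene Adam15 was at 0.03 for Senexin B and 0.32 for shCDK8, Adam9 at -0.33 and 0.10, and the aggrecanase gene Adamts4 at -0.13 and 0.38. Their medians were -0.13 for Senexin B and 0.22 for shCDK8, against -0.21 between the controls.

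RECK acts in WNT7 signalling together with the receptor ADGRA2. Adgra2 was at 9.88 in DMSO, 10.00 in Senexin B, 10.13 in pLKO.1 and 9.32 in shCDK8. It was thus lowest where Reck was highest, with a difference of -0.80 in shCDK8 minus pLKO.1 and of 0.12 with Senexin B. It was the only 1 of 6 expressed partners that was 1.5-fold apart in either comparison. Among expressed genes the shares were 4% for Senexin B and 3.52% for shCDK8. For Adgra2, shCDK8 minus DMSO was -0.56, no longer 1.5-fold. Fzd4, a Frizzled receptor, was at -0.33 and 0.14, and the co-receptor gene Lrp5 at 0.08 and 0.27.

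AP-1 is a transcription factor family known to act on Timp1 and on many metalloproteinase genes. Of 7 listed subunit genes Fosl1 was not analysed here, and of the other 6, all expressed, 0 were 1.5-fold apart in either comparison. Such a gap was uncommon on these arrays, at 4% of the expressed set in Senexin B minus DMSO and 3.52% in shCDK8 minus pLKO.1. Finding none among 6 therefore does not show that AP-1 was unchanged. Jund was at -0.34 with Senexin B and -0.23 with shCDK8, Fosb at -0.25 and 0.22, and Junb at -0.13 and 0.20. The medians were -0.09 and 0.16.

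In the RefSeq annotation Timp1 lies inside the synapsin gene Syn1 and Timp3 inside Syn3, while Cep295nl lies inside Timp2. Syn3 was at 5.79 in DMSO, 6.20 in Senexin B, 5.74 in pLKO.1 and 5.90 in shCDK8, above the limit on 1 array, and its differences of 0.41 and 0.16 were smaller than those of Timp3. Syn1 was at -0.16 and -0.34, also smaller than the differences of Timp1. Cep295nl was at 0.24 and -0.46, where Timp2 was at 0.16 and -0.07. How far probes of a host gene read the gene within it was not tested.

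**Figure D5:**
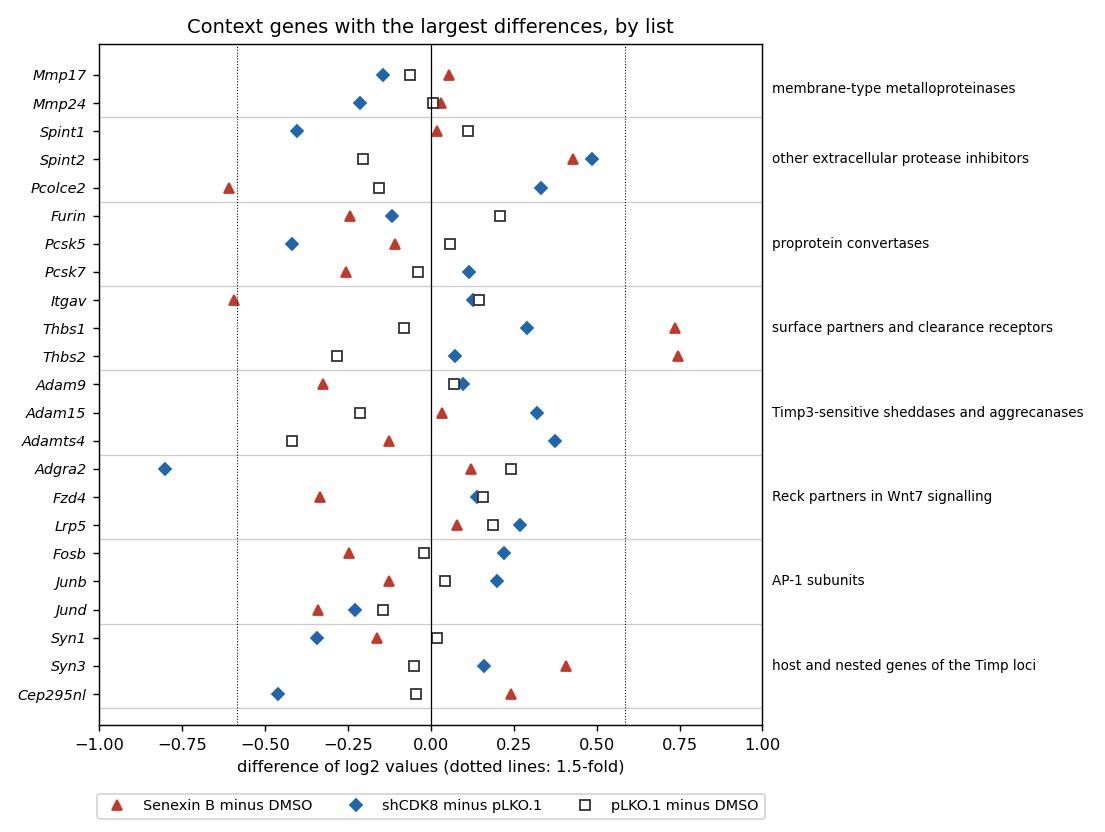
Differences of log2 values (horizontal axis) for up to 3 expressed genes per list with the largest differences (vertical axis, grouped by list); triangles are Senexin B minus DMSO, diamonds shCDK8 minus pLKO.1, open squares pLKO.1 minus DMSO, and dotted lines mark 1.5-fold. Thbs1 and Thbs2 lie right of the 1.5-fold line and Itgav and Pcolce2 left of it for Senexin B, and Adgra2 is at -0.80 for shCDK8.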

How the data were processed

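Each probe set has 1 deposited log2 expression value on each array. These values were made with RMA and Affymetrix Expression Console, per the submitters' processing notes. Not given in the sources used here are the versions, the settings and any joint normalization of the 4 arrays. RMA equalizes array distributions, so a shift common to all genes is lost, and it compresses differences near the background. Signal over background and the genome build were not used here.

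Of 41345 probe sets, 23521 had 1 gene symbol in the platform annotation and were used, 1814 had several and 16010 none. For a gene with several probe sets the one with the highest mean was taken. All 6 genes matched RefSeq (GRCm38.p6), which supplied gene overlaps and 5 upstream windows. Differences of log2 values were computed in Python 3.11.15 with pandas 2.3.3, and the computation was tested on simulated data. With 1 array per group there was no test, and the number of arrays limits the precision. The named genes were the 6 themselves, up to 3 expressed genes per list with the largest difference in either comparison, and 3 nearest genes for a gene spanning at least 1. Itgb3 and further cell type markers were named besides. The genes and the 13 lists were chosen with earlier results of these data known, and the motifs after the sequences had been read. Alternatives were a second quantile normalization, subtraction of a lowess trend (span 0.3), probe set means, no expression filter, a filter at the 60th percentile, values raised to the limit, and the other control. A difference was called moved at 0.1 or more, a count beyond a factor of 1.5.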

Additional observations from a re-analysis of the deposited data

How the results depend on the processing

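Across 120 alternative values of the 6 genes' differences, 112 moved by less than 0.1 on the log2 scale, and the other 8 moved with the control array, as given beside each gene. All 108 values under the other alternatives stayed within 0.1. The probe set mean and both filters could not change them, since each gene had 1 probe set and all 6 passed the filters. Raising values to the limit could change only the Mmp2 differences that use the DMSO array. Every other value of the 6 genes was above the limit. With repeated quantile normalization, 1 of the 6 genes was at least 2-fold apart in shCDK8 minus pLKO.1 in place of 0, because Timp3 lay at the threshold. With the other control, the median of the 6 differences for Senexin B was 0.22 in place of 0.45. It also changed the genes at least 1.5-fold apart from 4 to 3 for Senexin B and from 2 to 3 for shCDK8, since Mmp14 was at 0.15 and 0.97. With that control, 4.44% of expressed genes were 1.5-fold apart for Senexin B and 4.48% for shCDK8. With the control of the design, 4% and 3.52% were. The other counts were equal and the other medians moved by less than 0.1 under the alternatives run. Values near the expression limit, as for Mmp2 on 3 arrays and Syn3, are limited by signal over background. No paired analysis was possible because each group had 1 array and the labels give no replicate numbers.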

Other observations

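The genes that lay on the same side of both controls on both perturbed arrays by at least 1.5-fold were listed after their values were seen. On the higher side there were 11. Besides Aqp1 and Timp3 they held the prolactin gene Prl (gap 0.74), Anxa8 (0.68), the phospholipid transfer protein gene Pltp (0.68) and the tight junction gene Cldn9 (0.65). The rest were Galnt15 (0.62), Ido2 (0.61), Scara3 (0.61), the follistatin-like gene Fstl1 (0.60) and the myelin protein gene Pmp22 (0.59). Ido2 was under the expression limit on both controls, at 5.80 in DMSO and 5.67 in pLKO.1, so its gap rests on values under the limit.

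On the lower side there were 15, among them Mmp13 (1.52), Mmp10 (1.18), Mmp3 (0.74) and Timp1 (0.73), while Timp2, Reck, Mmp2 and Mmp14 were on neither list. Others were Ppargc1a, a coactivator of mitochondrial genes (0.77), Hmox1, the heme oxygenase gene (0.63), and Tnc, the matrix gene tenascin C (0.59). Hmox1 stood at 11.25 in DMSO, 10.17 in Senexin B, 10.80 in pLKO.1 and 10.12 in shCDK8, so its controls differed by more than those of Timp1.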
